A study of Mustela putorius furo with 2 samples.

Results

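The myelin sheath genes MBP, MOG, MAG, MOBP, CNP, OPALIN, ERMN and UGT8 were followed through single-nucleus transcriptomes of ferret somatosensory cortex. Members were taken as the rows of both count matrices that carry these symbols. All 8 were found, once each, among 28156 features, of which 14296 have a symbol. The 2 libraries came from ferrets (Mustela putorius furo) with the genotype label DCX knockout, although the series text speaks of a knockdown. DCX is the gene of doublecortin, which binds microtubules in young migrating neurons, and its loss can leave a misplaced band of neurons under the cortex. The titles call the libraries replicates 1 and 2, but their region labels differ, with 1 from the upper and 1 from the deeper band of the cortex, and the grouping here follows the region. How old the animals were, their sex and how many were used are not given in the sources used here, and tissue with intact DCX was not analysed here. With 1 library per band, no difference was checked against replicates, no p-value is given, and band cannot be told apart from animal or library preparation.

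Myelin is the stack of membrane that oligodendrocytes wrap around axons in the central nervous system, where it speeds conduction and supports the axon. Precursor cells divide, leave the cell cycle, pass through a newly formed stage and then raise the genes of the mature sheath. MBP and MOBP encode basic proteins of compact myelin, where MBP holds the inner membrane faces together. CNP encodes an enzyme of the non-compact inner cytoplasm. MOG sits on the outermost lamella, and MAG faces the axon as an adhesion molecule. OPALIN is a transmembrane protein of the oligodendrocyte, and ERMN (ermin) binds actin in its processes. UGT8 makes galactosylceramide, a main lipid of the sheath.

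The files held 7151 barcodes and 66253015 unique molecular identifiers (UMIs, counts of captured RNA molecules) for the upper band, and 9694 barcodes and 78352064 UMIs for the deeper band. After filters on detected genes and on likely doublets, 6261 and 8150 nuclei remained, with medians of 7992 and 4887.5 UMIs, and 24 barcode sequences occurred in both libraries. Joint clustering gave 27 clusters, of which 25 were named by resemblance to a type. Clusters were made and named without the 8 members. The doublet caller used all genes, the members among them, so member levels could affect which nuclei were kept. Levels are given as CPM, the UMIs of a gene scaled to all UMIs of the class, the usual count-per-million measure. CPM values are compared here between classes and bands for 1 gene, not between genes, since gene length was not corrected for. All intervals are 95% intervals and cover counting error only.

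Of the upper-band nuclei, 925 were oligodendrocyte-like, or 14.8% (exact binomial interval 13.9% to 15.7%). In the deeper band there were 2524, or 31.0% (30.0% to 32.0%). These shares leave out the 2 unnamed clusters, which also carried oligodendrocyte markers. The cluster with astrocyte markers held 2.40% of upper-band and 0.577% of deeper-band nuclei, and the cluster with microglia markers 2.51% and 1.67%. All 24 oligodendrocyte markers present in the files, none of them a member, had UMIs in this class in both bands. Of a list of 6 Schwann cell genes, 4 had UMIs in the class in both bands, with sums of 667 and 615 CPM. Nearly all of that was CDH19 (659 and 607 CPM), which is also among the leading genes of oligodendrocyte-like clusters. PRX stood at 3.1 and 2.48 CPM, and NCMAP had 0 UMIs. Astrocyte markers summed to 446 CPM in the upper and 397 CPM in the deeper band there, with ALDH1L1 at 0 in both. Microglia markers summed to 98.8 and 99.7 CPM, and oligodendrocyte precursor markers to 349 and 314 CPM. Sums were larger for vascular (719 and 773 CPM), excitatory neuron (643 and 631 CPM) and newly formed oligodendrocyte markers (1575 and 1510 CPM). Inhibitory neuron markers summed to 2140 and 1831.5 CPM, of which ERBB4 alone gave 1480 and 1229 CPM. The class was shallow, with a median of 2251 UMIs per nucleus in the upper and 1922.5 in the deeper band. In excitatory neuron-like nuclei the medians were 10750 and 10400.

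Myelin genes were concentrated in this class, and their summed level per oligodendrocyte-like UMI was nearly the same in the 2 bands. The 8 members together had 19955 UMIs (8837 CPM) in the upper band. They had 45682 UMIs (8721 CPM) in the deeper band. The log2 ratio, always given as deeper over upper band, was -0.02 (interval -0.04 to 0.01). In excitatory neuron-like nuclei the same sum was 63.7 and 44.7 CPM. The class held 60.0% of all member UMIs of the upper-band library and 85.7% of those of the deeper-band library. Much of the rest in the upper band lay in the 2 unnamed clusters, which combined oligodendrocyte markers with those of astrocytes or microglia.

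**Figure D1:**
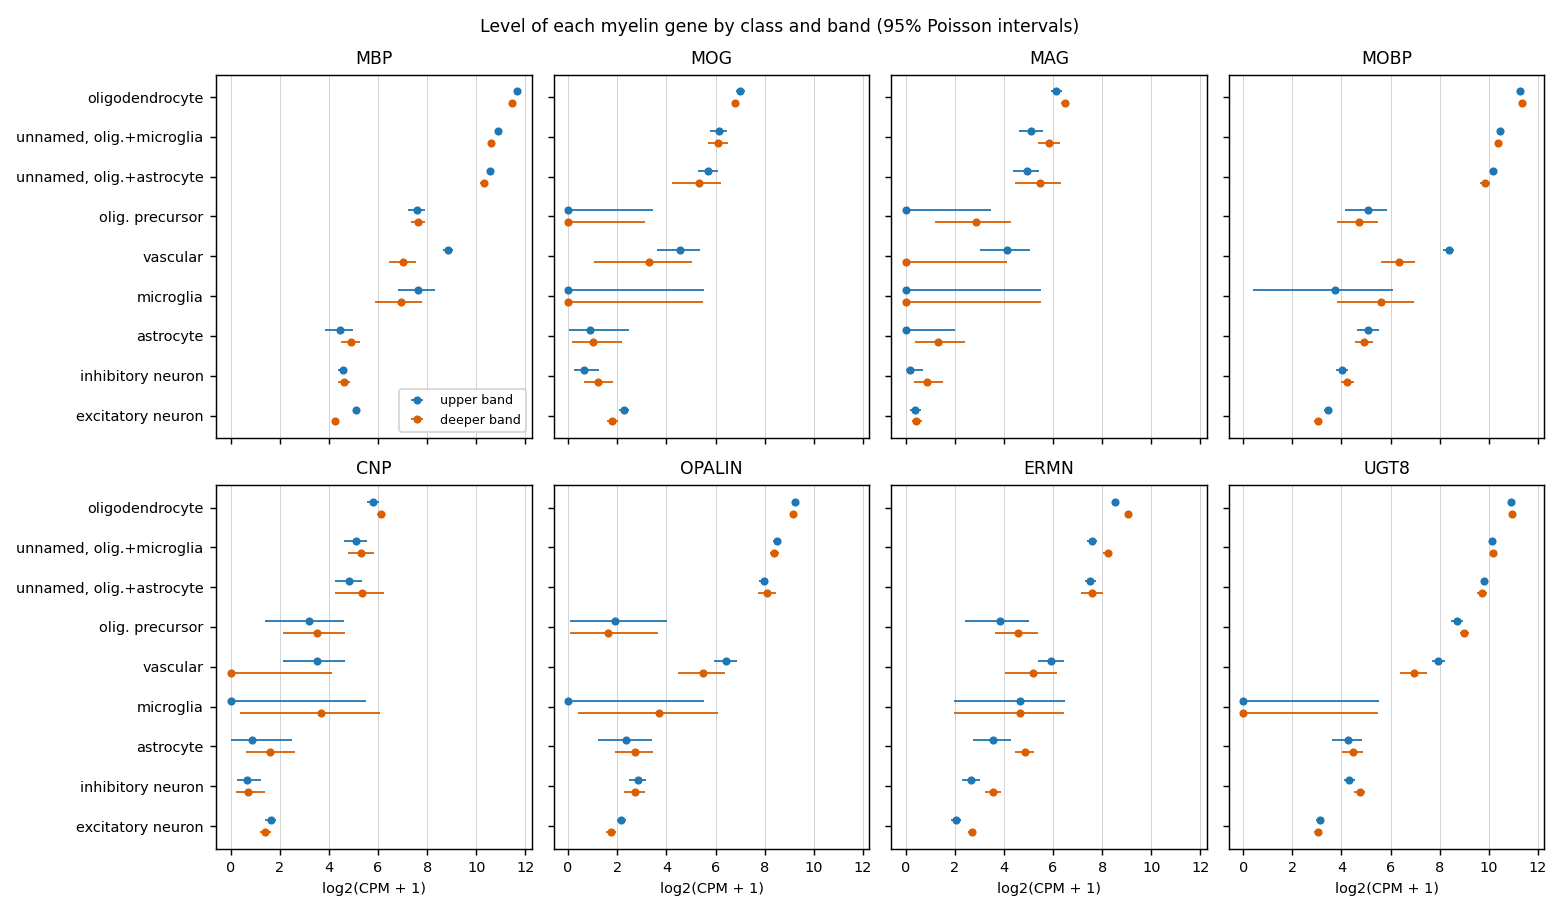
Level of each member as log2(CPM + 1) in 9 classes of nuclei, with the upper band in blue and the deeper band in orange; bars are 95% Poisson intervals of the summed UMIs and 1 library stands behind each point. Every member is highest in the oligodendrocyte row; in precursors UGT8 and MBP have the most UMIs, and MBP is the member that differs most visibly between bands in excitatory neurons.

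Among the structural genes, MBP measured 3200 CPM in upper-band oligodendrocyte-like nuclei and 2801 CPM in deeper-band ones. Its log2 ratio was -0.19 (-0.23 to -0.15), a small deficit in the deeper band. MOBP measured 2494 CPM in the upper and 2621 CPM in the deeper band, with a log2 ratio of 0.07 (0.03 to 0.12). The 2 basic-protein genes thus leaned in opposite directions, each by a small amount. CNP was sparse, with 124 UMIs (54.9 CPM) in the upper and 359 UMIs (68.5 CPM) in the deeper band and a log2 ratio of 0.32 (0.02 to 0.63).

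The surface genes were also close between bands. MOG measured 128 CPM (290 UMIs) in the upper and 110 CPM (575 UMIs) in the deeper band, with a log2 ratio of -0.23 (-0.43 to -0.02). MAG measured 69.5 CPM (157 UMIs) and 87.8 CPM (460 UMIs), with a log2 ratio of 0.34 (0.07 to 0.61). OPALIN measured 602 and 568 CPM, with a log2 ratio of -0.08 (-0.18 to 0.01), an interval that includes no difference. The lipid enzyme gene UGT8 was level, at 1923 CPM in the upper and 1943 CPM in the deeper band (log2 ratio 0.01, -0.04 to 0.07).

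ERMN, the actin-binding member, differed most. It measured 364 CPM (823 UMIs) in the upper and 523 CPM (2739 UMIs) in the deeper band, and the log2 ratio was 0.52 (0.41 to 0.63). Among the 7465 genes with at least 100 UMIs in the class, this ratio lay at percentile 95.6. It stayed just under the 1.5-fold limit used to count differences, and passed it at a Leiden resolution of 2 (0.67), after thinning every nucleus to 1000 UMIs (0.64) and with the unnamed clusters counted in (0.78). Across the alternatives it was lowest, at 0.46, with the most one-sided cluster of the class left out. No member (0 of 8) was past 1.5-fold in either direction, where 3.15% of the 7465 genes were past it upward and 1.71% downward. The median ratio of the members was 0.04, against 0.01 over all those genes.

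**Figure D2:**
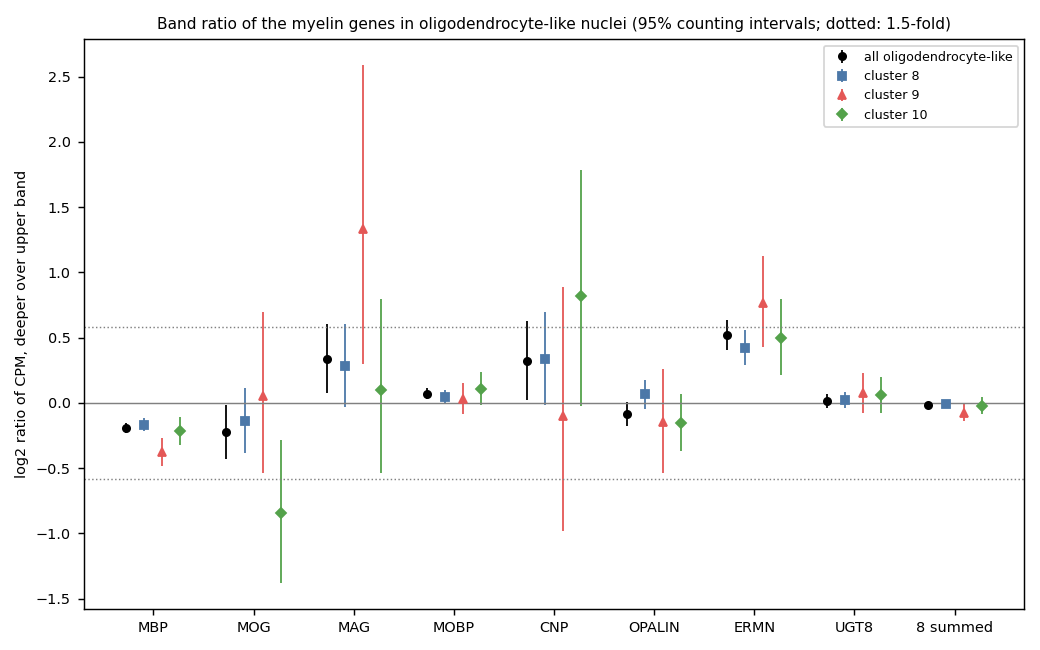
Log2 ratio of CPM, deeper over upper band, for each member and for the 8 summed, in all oligodendrocyte-like nuclei (black) and in their 3 clusters; bars are 95% counting intervals and dotted lines mark 1.5-fold. ERMN lies above 0 and MBP below 0 in all 3 clusters, while the summed level stays at or near 0.

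Over all nuclei of a library, the members were higher in the deeper band, which also held more oligodendrocytes. Oligodendrocyte-like nuclei held 4.31% of UMIs in the upper and 9.82% in the deeper band. The unnamed clusters are not in these shares. The one with astrocyte markers held 1.82% and 0.430% of UMIs, and the one with microglia markers 2.04% and 1.49%. The summed members stood at 635 CPM in the upper and 999 CPM in the deeper band (log2 ratio 0.65, 0.63 to 0.67). All 8 members were higher in the deeper band, and 6 of the 8 were past 1.5-fold, where 3.64% of 15253 genes were past it upward and 4.92% downward. With 2 times as many doublets removed, ERMN (1.02) and MAG (0.84) stayed past it, while MOBP (0.55), CNP (0.53), UGT8 (0.50) and OPALIN (0.40) did not. ERMN had the highest ratio, at 1.22 (1.13 to 1.31), and MAG followed at 1.13 (0.91 to 1.36). MOG had the lowest, at 0.35 (0.19 to 0.51), and MBP was next at 0.44 (0.41 to 0.48). From the ratio over all nuclei alone, more oligodendrocytes and more RNA per oligodendrocyte cannot be told apart. Oligodendrocyte-like nuclei had a median of 2251 UMIs in the upper and 1922.5 in the deeper band. Their summed member level was 8837 and 8721 CPM. The values within the class, above, compare oligodendrocyte-like nuclei only, though their clusters were not equally represented in the 2 bands.

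Single nuclei rarely showed the whole set at this depth. After each nucleus was thinned to 1000 UMIs, oligodendrocyte-like nuclei had UMIs of a median of 4 of the 8 members in both bands. At least 4 members were seen in 52.3% of the upper-band and 56.9% of the deeper-band nuclei. MBP was seen in 93.6% and 93.1% of thinned nuclei, MOBP in 83.2% and 84.8%, and UGT8 in 83.4% and 82.8%. CNP was seen in 4.68% and 6.65%, and MAG in 6.80% and 9.09%. Before thinning, MBP was seen in 99.0% and 98.1% of the nuclei. In excitatory neuron-like nuclei, a class expected to lack most of these genes, MBP was seen in 3.21% and 1.91% of thinned nuclei (23.5% and 15.5% before thinning).

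**Figure D3:**
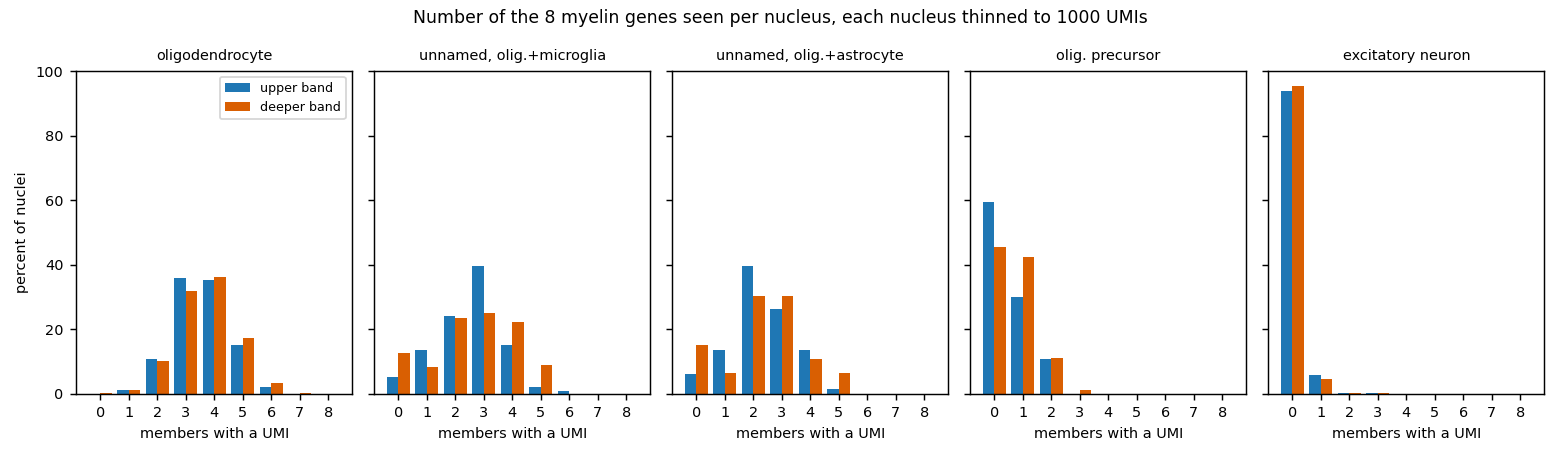
Percent of nuclei (y axis) by the number of the 8 members with at least 1 UMI (x axis) after thinning each nucleus to 1000 UMIs, in 5 classes and both bands. Oligodendrocyte-like nuclei centre on 3 to 4 members, the unnamed clusters on 2 to 3, precursors on 0 to 1, and 94.0% and 95.5% of excitatory nuclei show 0.

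The oligodendrocyte-like class held 3 clusters. The first (cluster 8; 655 upper-band and 1276 deeper-band nuclei) had CASR and PHLDB1 as its first leading genes. The next (cluster 9; 79 and 466 nuclei) was led by ABCA9, RASGRP3 and ENPP6; ENPP6 is known as a gene of newly formed oligodendrocytes and stood at 275 CPM there, against 25.8 CPM in cluster 8. The last (cluster 10; 191 and 782 nuclei) was led by TF, CDH19 and ST18 and was the shallowest, with median depths of 1627 and 1506 UMIs. CRYAB, a stress-linked chaperone gene, measured 172, 246 and 274 CPM in clusters 8, 9 and 10. These ENPP6 and CRYAB values are over both bands together. CRYAB had a log2 ratio of 1.95, deeper over upper band, in the whole class. Clusters 9 and 10 held relatively more deeper-band nuclei than cluster 8, so cluster and band are mixed in its values.

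OPALIN separated the ENPP6 cluster from the others in both bands. In cluster 8 it measured 618 CPM in the upper and 647 CPM in the deeper band, and in cluster 10 it measured 749 and 673 CPM. In cluster 9 it measured 286 CPM (66 UMIs) and 258 CPM (295 UMIs). The values of cluster 9 lay under those of the other clusters in each library, with a log2 ratio against cluster 8 of -1.11 (-1.49 to -0.75) in the upper and -1.33 (-1.51 to -1.15) in the deeper band. Past 1.5-fold lower than cluster 8 were OPALIN and MAG in the upper band, where 9.86% of genes were, and OPALIN alone of the members in the deeper band, where 5.73% were. No member was past it upward, where 7.63% and 6.67% of genes were. These clusters were built from the other genes of the same nuclei, so such ratios describe how OPALIN goes with them.

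The basic proteins went the other way in the ENPP6 cluster. MBP measured 4003 CPM in cluster 9 and 3134 CPM in cluster 8 of the upper band, and 3079 and 2792 CPM in the deeper band. MOBP measured 3114 against 2493 CPM in the upper band and 3187 against 2572 CPM in the deeper band, log2 ratios of 0.32 and 0.31. UGT8 was within 0.10 log2 units of cluster 8 in both bands, at -0.10 (-0.25 to 0.05) and -0.05 (-0.12 to 0.03). MAG was below cluster 8 by a log2 ratio of -1.05 in the upper band, from 8 UMIs, and equal to it in the deeper band (87.5 CPM in both clusters). The low OPALIN level of cluster 9 therefore stood beside MBP and MOBP levels at or above those of the other clusters.

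Cluster 10 carried slightly less MOBP than cluster 8. It was at a log2 ratio of -0.30 (-0.42 to -0.18) in the upper and -0.23 (-0.30 to -0.17) in the deeper band. MBP was at -0.08 (-0.19 to 0.02) and -0.13 (-0.19 to -0.07), and UGT8 at -0.16 and -0.13. OPALIN was at 0.28 (0.06 to 0.48) and 0.06 (-0.06 to 0.18). In this contrast 5.17% and 3.55% of genes were past 1.5-fold higher and 5.15% and 1.9% past it lower in the upper and deeper band, and no member was.

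Within each cluster, ERMN was again higher in the deeper band. Its log2 ratios were 0.42 (0.29 to 0.56) in cluster 8, 0.77 (0.43 to 1.12) in cluster 9 and 0.50 (0.21 to 0.79) in cluster 10. MBP was lower in the deeper band in each, at -0.17, -0.38 and -0.22. In cluster 8 no member was past 1.5-fold, where 1.99% of genes were past it upward and 1.66% downward. In cluster 9, ERMN and MAG (1.34, 0.30 to 2.59) were past it upward, where 6.84% of genes were past it upward and 3.3% downward. In cluster 10, CNP (0.82, -0.03 to 1.78) was past it upward and MOG (-0.84, -1.38 to -0.29) downward, where the shares were 5.55% and 2.42%. The ERMN and MBP directions were thus the same in each of the 3 clusters, while the MAG, CNP and MOG values rested on few UMIs and differed from cluster to cluster.

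Precursors showed an uneven part of the set. Oligodendrocyte precursor-like nuclei (126 in the upper and 193 in the deeper band), led by MEGF11, PDGFRA and VCAN, had UGT8 at 419.5 CPM (155 UMIs) in the upper and 509 CPM (242 UMIs) in the deeper band. MBP stood at 189 CPM (70 UMIs) and 198 CPM (94 UMIs). MOBP had 12 UMIs in each band (32.5 and 25.2 CPM). ERMN had 5 and 11 UMIs (13.5 and 23.1 CPM), and CNP 3 and 5 (8.12 and 10.5 CPM). OPALIN had 1 in each, MAG 0 and 3, and MOG none. The counts of 0 allow up to 8.12 CPM in the upper and, for MOG, 6.31 CPM in the deeper band. MOG, OPALIN and MAG were thus at or near 0 in precursors.

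The ratio of 1 member to another does not depend on the class total, and it differed widely here. In oligodendrocyte-like nuclei of both bands together, 0.750 UMIs of UGT8 were counted per UMI of MOBP (0.734 to 0.766), and in precursors 16.5 (11.0 to 26.1). MBP was counted 1.13 times per UMI of MOBP in oligodendrocyte-like nuclei (1.11 to 1.15) and 6.83 times in precursors (4.44 to 11.0). Neither UGT8 (0.28, -0.02 to 0.58) nor MBP (0.06, -0.40 to 0.53), the 2 members with at least 100 UMIs in precursors, was past 1.5-fold between bands, where 2.08% of 1874 genes were past it upward and 2.03% downward.

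The 2 unnamed clusters carried the members at a lower CPM than oligodendrocyte-like nuclei. The cluster with astrocyte genes in the lead (150 upper-band and 47 deeper-band nuclei) had MBP at 1504 and 1265 CPM. The cluster led by immune genes such as IL7R and RUNX1 (157 and 136 nuclei) had MBP at 1867 and 1564 CPM. Their MBP to MOBP ratios, 1.31 (1.21 to 1.40) and 1.27 (1.20 to 1.33), were slightly above that of oligodendrocyte-like nuclei, and their MOG, MAG and CNP to MOBP ratios had intervals that overlapped those of the class. In the cluster led by immune genes, UGT8 per MOBP was 0.822 (0.776 to 0.871), above the class value of 0.750, and OPALIN per MOBP was 0.256 (0.234 to 0.279), against 0.224 (0.217 to 0.231). In the other cluster these ratios were 0.802 (0.739 to 0.870) and 0.227 (0.20 to 0.258). Median depths in these clusters ran from 4363 to 5450 UMIs, against 1922.5 to 2251 in oligodendrocyte-like nuclei. The lower CPM is therefore not a lower count per nucleus. In the upper band, the cluster led by immune genes had 5433 member UMIs in 157 nuclei, and oligodendrocyte-like nuclei had 19955 in 925. Before thinning, the median was 5 of the 8 members in both unnamed clusters and in oligodendrocyte-like nuclei, among nuclei with at least 1000 UMIs. Whether these barcodes hold 1 nucleus or more was not tested beyond the doublet caller. Vascular-like nuclei had MBP at 460 CPM in the upper and 129 CPM in the deeper band, and 13.2% of them had an MBP UMI. In the upper band, 222 MBP UMIs lay in 40 of 262 nuclei, and in the deeper band 29 in 15 of 154. Oligodendrocyte markers other than the members summed to 4196 and 2051 CPM in this class. Its vascular markers summed to 4155 and 4107 CPM. The MBP to MOBP ratio of vascular-like nuclei was 1.42 (1.17 to 1.73). The source of these UMIs was not tested.

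Excitatory neurons held low counts of every member, in other proportions than oligodendrocytes. In excitatory neuron-like nuclei, MBP measured 33.3 CPM (1243 UMIs) in the upper and 17.8 CPM (680 UMIs) in the deeper band, and MOBP measured 9.85 and 7.31 CPM. MBP per MOBP was 2.97 (2.72 to 3.25), above the 1.13 of oligodendrocyte-like nuclei. MOG per MOBP was 0.368 (0.316 to 0.427) against 0.0447, and CNP per MOBP was 0.219 (0.182 to 0.264) against 0.0249. These intervals did not overlap those of oligodendrocyte-like nuclei. Without doublet removal, MBP in excitatory nuclei measured 99.6 CPM in the upper and 101 CPM in the deeper band, and MOBP 56.0 and 79.7 CPM. Excitatory nuclei held 25.0% of all MOG UMIs and 28.1% of all CNP UMIs of the upper-band library, but 4.11% of the MOBP UMIs. In the deeper-band library these shares were 12.8%, 13.4% and 1.80%. All of them lay below the share of the class in all UMIs, which was 71.3% in the upper and 71.6% in the deeper band.

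Inhibitory neuron-like nuclei differed from excitatory ones. Their MBP per MOBP was 1.40 (1.18 to 1.66), and MOG and CNP per MOBP were 0.0537 and 0.0372, with intervals that included the oligodendrocyte values. UGT8 per MOBP was 1.33 (1.12 to 1.57), against 0.750 in oligodendrocyte-like nuclei. In the cluster led by BTBD11 and DOCK11 (cluster 0), which also had LHX6 among its leading genes, UGT8 stood at 24.5 CPM in the upper and 32.7 CPM in the deeper band, with 2.00 UMIs per UMI of MOBP (1.54 to 2.62). A small cluster of 34 nuclei led by NOS1 and CHODL had UGT8 at 41.1 CPM over both bands. That value rests on 11 UMIs, beside 8 of MOBP and 20 of MBP. ERMN per MOBP was raised in both neuron classes, at 0.509 in excitatory and 0.463 in inhibitory nuclei, and in astrocytes at 0.687 (0.497 to 0.945), against 0.184 in oligodendrocyte-like nuclei. No correction for free RNA was made, and its part in these counts was not tested.

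MBP varied strongly among the 12 excitatory clusters. Over both bands it measured 104 CPM in the cluster led by HHLA2 and HTR2C (cluster 16), 70.1 CPM in the cluster with FEZF2 among its leading genes (cluster 18) and 62.7 CPM in the cluster led by FOXP2 and SYT6 (cluster 7). FOXP2 and FEZF2 are known as genes of deep-layer projection neurons. The lowest value was 6.80 CPM in cluster 1, led by SYT2 and HNF4G, and clusters 2, 4, 11 and 23 lay between 10.2 and 13.9 CPM. High MBP and deep-layer genes did not always go together. Cluster 25 (35 nuclei), with CUX2, an upper-layer gene, at 888 CPM and FOXP2 at 6.87 CPM, had MBP at 52.7 CPM. Cluster 5, with FOXP2 at 5.25 and FEZF2 at 8.39 CPM, had MBP at 38.8 CPM. On the other side, cluster 4, with TLE4 at 732 CPM and FOXP2 at 64.9 CPM, had MBP at 10.2 CPM. MBP was seen in 50.0%, 64.8% and 38.4% of the nuclei of clusters 16, 18 and 7.

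MOBP did not rise in the same measure. In clusters 16, 18 and 7 it measured 22.9, 11.1 and 10.5 CPM, so MBP per MOBP was 4.54 (3.17 to 6.67), 6.31 (4.42 to 9.23) and 5.99 (4.65 to 7.81). The ratio was also above 1.13 in clusters 3 (3.42, 2.64 to 4.48), 5 (5.4, 3.95 to 7.50), 11 (2.33, 1.76 to 3.12), 12 (2.64, 1.93 to 3.66) and 25 (3.83, 1.52 to 11.5). In microglia-like nuclei it was 5.20 (1.97 to 17.3), from 26 MBP and 5 MOBP UMIs. In cluster 23 it was 1.51 (0.98 to 2.36). In clusters 1, 2 and 4 the same ratio was 0.735, 0.951 and 1.06, each with an interval that included the oligodendrocyte value of 1.13. CNP was highest among excitatory clusters in cluster 7, at 7.54 CPM in the upper band (42 UMIs) and 3.32 CPM in the deeper band (4 UMIs). It had no UMI in cluster 18. The MBP gene is known to give rise also to golli transcripts, which start upstream and are found in neurons and immune cells, and counts per gene do not tell them from those of myelin. Which transcripts these UMIs belong to was not tested.

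**Figure D4:**
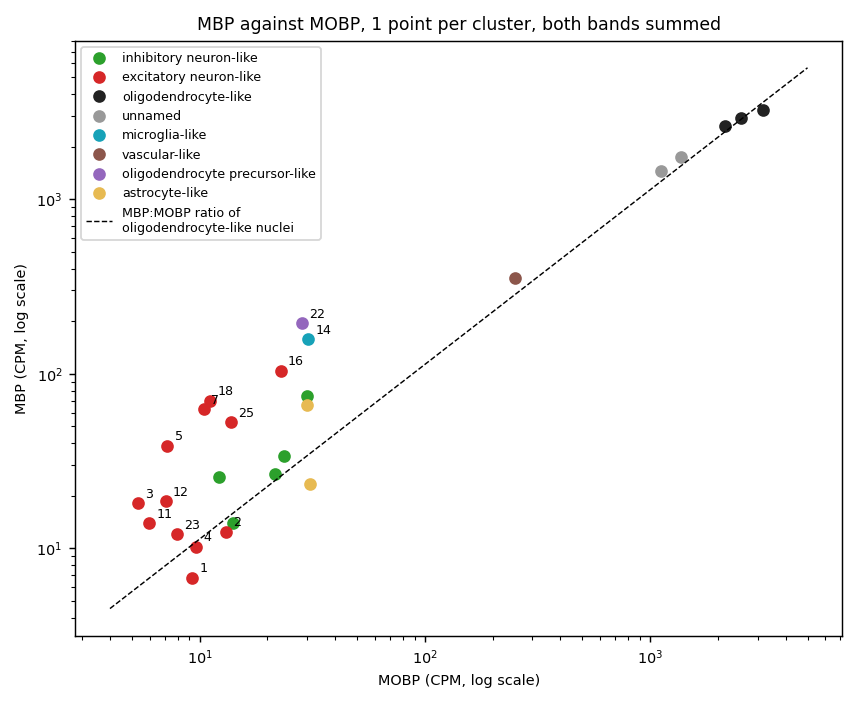
MBP against MOBP in CPM, both on log axes, 1 point per cluster with both bands summed, coloured by class; the dashed line is the MBP to MOBP ratio of oligodendrocyte-like nuclei and numbers name excitatory, precursor (22) and microglia-like (14) clusters. Oligodendrocyte-like and unnamed clusters lie on or close to the line, though some of their intervals exclude it. Excitatory clusters 3, 5, 7, 11, 12, 16, 18 and 25 lie above it, with intervals that exclude it. So do the precursors, the microglia-like cluster, the vascular-like cluster and the inhibitory cluster 6.

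MBP was also counted after excitatory nuclei with other oligodendrocyte RNA were set aside. Kept were the nuclei with no UMI of another member or of a short set of other oligodendrocyte genes, among them ST18, MYRF, CLDN11 and TF. In them, MBP measured 92.4 CPM in the upper and 66.3 CPM in the deeper band in cluster 16, and 98.8 and 68.5 CPM in cluster 18. The deeper-band values rest on 7 UMIs in 13 nuclei (26.7 to 137 CPM) and 8 UMIs in 9 nuclei (29.6 to 135 CPM). In cluster 7 it measured 60.2 CPM in the upper band (273 nuclei) and 33.3 CPM in the deeper band (52 nuclei). In cluster 1 it stayed at 5.64 and 4.40 CPM. In cluster 25 it measured 72.2 CPM (5 UMIs in 8 nuclei) and 63.9 CPM (6 UMIs in 9 nuclei). Clusters 7, 16 and 18 stayed above cluster 1 in both libraries, but these clusters were picked by their MBP level in the same data. A nucleus with no UMI of the other genes can still hold free MBP RNA, and the source of these UMIs was not tested.

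**Figure D5:**
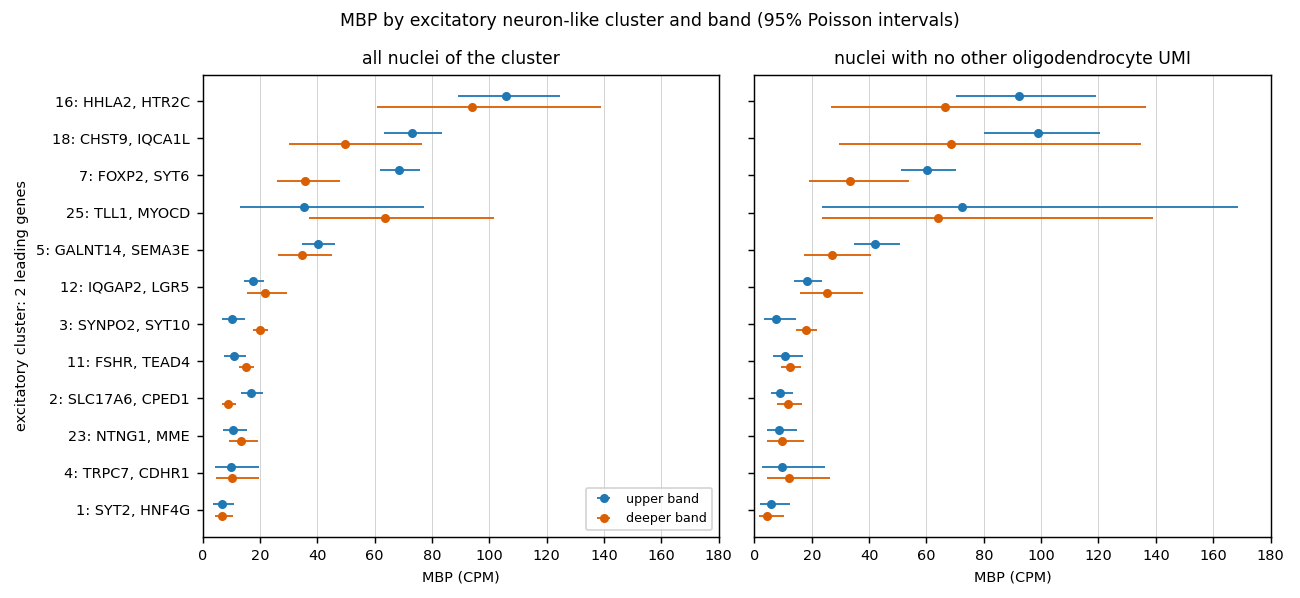
MBP level in CPM (x axis) for each of the 12 excitatory neuron-like clusters, named by number and 2 leading genes, in the upper (blue) and deeper (orange) band, for all nuclei (left) and for nuclei with no UMI of other oligodendrocyte genes (right); bars are 95% Poisson intervals. Clusters 16 and 18 lead in the upper band of both panels, with wide intervals for clusters of few nuclei such as 25.

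Splitting excitatory nuclei by layer genes in place of clusters also gave unequal MBP levels; this split was chosen after the values by cluster had been seen. In the upper band, nuclei with a FOXP2 or FEZF2 UMI and none of CUX2 had MBP at 57.3 CPM (904 nuclei). Nuclei with a CUX2 UMI and none of FOXP2 or FEZF2 had 15.5 CPM (1377 nuclei), and the log2 ratio was 1.89 (1.67 to 2.1). In the deeper band the levels were 30.8 CPM (221 nuclei) and 15.1 CPM (2859 nuclei), with a log2 ratio of 1.02 (0.65 to 1.38). Nuclei with no UMI of the 3 genes had MBP at 36.2 CPM (731 nuclei) in the upper and 33.9 CPM (290 nuclei) in the deeper band. In the deeper band that was no lower than in the nuclei with FOXP2 or FEZF2. Without doublet removal both ratios dropped to 0.47 and 0.44, and with 2 times as many doublets removed they were 2.33 and 0.63. MOBP in the FOXP2 or FEZF2 set and the CUX2 set was 11.7 and 10.3 CPM in the upper band and 10.5 and 6.68 CPM in the deeper band.

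Between bands, the excitatory class as a whole showed lower MBP in the deeper band, at a log2 ratio of -0.90 (-1.04 to -0.77). MOG was at -0.62 (-1.01 to -0.24), OPALIN at -0.59 (-0.99 to -0.19) and MOBP at -0.43 (-0.66 to -0.20). CNP was at -0.32 (-0.82 to 0.18) and UGT8 at -0.08 (-0.33 to 0.16). Without doublet removal MBP was level (99.6 and 101 CPM), and MOBP, OPALIN (16.2 and 22.1 CPM) and UGT8 (46.7 and 72.1 CPM) were higher in the deeper band. ERMN was higher, at 0.79 (0.46 to 1.12), from 3.19 to 5.50 CPM. Of the 7 members with at least 100 UMIs, 1 was past 1.5-fold higher and 3 lower, where 3.38% of 13883 genes were past it upward and 6.19% downward. MAG, with 24 UMIs, was not counted.

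The excitatory class did not hold the same clusters in both bands. Clusters 7, 16 and 18 had 542, 157 and 141 nuclei in the upper band and 119, 29 and 21 in the deeper band, while cluster 3, led by SYNPO2 and SYT10, had 218 and 1058. Within cluster 7, MBP was 68.6 CPM in the upper and 35.7 CPM in the deeper band (log2 ratio -0.94, -1.43 to -0.49). Within cluster 2 it was 16.9 and 8.84 CPM (-0.93, -1.46 to -0.42). Within cluster 16 it was 106 and 94.2 CPM, and within cluster 5 it was 40.1 and 34.7 CPM, with intervals of the ratio that included 0. Within cluster 3 the order was opposite, at 10.2 and 20.0 CPM (0.97, 0.39 to 1.60). Lower MBP in the deeper band, with an interval that excludes 0, was thus found in clusters 2 and 7 and not in every cluster. In cluster 2, MOBP (-1.18, -1.71 to -0.67) and UGT8 (-0.94, -1.55 to -0.35) were lower there too. In its nuclei without other oligodendrocyte UMIs, MBP was not lower in the deeper band. It measured 8.92 CPM (23 UMIs) in the upper and 11.6 CPM (29 UMIs) in the deeper band. Such nuclei of cluster 7 kept the order, at 60.2 and 33.3 CPM.

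Inhibitory nuclei and astrocytes shared the ERMN direction. ERMN measured 5.36 CPM (46 UMIs) in the upper and 10.8 CPM (66 UMIs) in the deeper band in inhibitory nuclei (log2 ratio 1.00, 0.44 to 1.58). In astrocyte-like nuclei it measured 10.8 CPM (13 UMIs) and 27.7 CPM (55 UMIs), with a log2 ratio of 1.36 (0.47 to 2.36). No member reached 100 UMIs in astrocyte-like nuclei, so 0 were counted there, where 3.13% of 5278 genes were past 1.5-fold upward and 2.18% downward. MBP in inhibitory nuclei was level at 22.6 and 23.6 CPM, and UGT8 was at 19.0 and 25.7 CPM (0.44, 0.11 to 0.76). Of the 4 members with at least 100 UMIs there, 1 was past 1.5-fold higher and none lower, where 2.5% of 10018 genes were past it upward and 2.09% downward. ERMN over the whole library moved in the same direction (27.1 CPM in the upper, 63.2 CPM in the deeper band), and the part of free RNA in its levels outside oligodendrocytes was not tested.

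Other genes of the pathway were counted in oligodendrocyte-like nuclei in the same way, where 3.15% of all genes were past 1.5-fold upward and 1.71% downward. Of 16 other structural and membrane genes of myelin in the files, 11 had at least 100 UMIs and none was past 1.5-fold, with a median log2 ratio of 0.16. PLLP was lowest, at -0.45 (-0.68 to -0.22), and MAL highest, at 0.34 (0.14 to 0.54).

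Of 18 genes of lipid synthesis, 14 were counted and 2 were past 1.5-fold higher, with a median of 0.01, against the 3.15% of all genes. SCD, a fatty acid desaturase, measured 149 CPM in the upper and 280.4 CPM in the deeper band (0.91, 0.74 to 1.09), and ELOVL7, a fatty acid elongase, was at 0.65 (0.13 to 1.20). FA2H, which makes the hydroxylated fatty acids of myelin lipids, was at -0.28 (-0.54 to -0.01).

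None of the 12 lineage regulators counted was past 1.5-fold (median -0.05). SOX10 was at 0.04 (-0.29 to 0.38) and MYRF, a factor that drives myelin genes, at -0.10 (-0.47 to 0.27). None of the 14 counted genes of axon contact and adhesion was past it (median -0.11), with SEMA4D highest at 0.51 and RTN4R lowest at -0.44. Of 7 counted genes listed for newly formed oligodendrocytes, ENPP6 (0.82, 0.51 to 1.15) and ABCA9 (0.93, 0.68 to 1.19) were past it upward, against 3.15% of all genes. The list was drawn up with earlier results of these data known, and ABCA9 was not among the markers used to name that stage. The median of the 7 was 0.08 and 4 were above 0, with FYN lowest at -0.23 and BCAS1 at -0.12. ENPP6 and ABCA9 thus do not stand for the list as a whole. Both of these genes lead cluster 9, which held 79 of the 925 upper-band and 466 of the 2524 deeper-band nuclei of the class.

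Over the 47 combinations of cluster and library with at least 30 nuclei, the genes whose level was most like the mean of the 8 members were ARID4B (Pearson r 0.977), CP (0.973) and HAPLN2 (0.973). These points share libraries, depth and the gap between oligodendrocytes and all other cells, so the values describe and do not test. For single members the nearest genes were ST18 for MBP (0.958), CP for MOBP (0.973), SLC5A11 for CNP (0.913), ABCA2 for MOG (0.940) and LGSN for MAG (0.962). They were NEK2 for OPALIN (0.975), TF for ERMN (0.977) and CDH19 for UGT8 (0.984). Among the members themselves, MOBP and OPALIN were most alike (0.960), and MOG and CNP, the pair with relatively many UMIs in excitatory nuclei, least (0.793).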

How the data were processed

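Nuclei were isolated from frozen somatosensory cortex and captured in droplets, per the labels' protocols. The authors deposited raw, unnormalized UMI counts by gene and barcode, as whole numbers in 1 matrix per library, per the file headers. Cell Ranger 6.2.1 and 2.1.1 are named in the submitters' processing notes, and the header gives software version 3.1.0. The genome build, annotation and treatment of intronic reads are not given in the sources used here. The members and gene lists were chosen with earlier results of these data known. All 8 members are plotted by class and given in the band comparison of oligodendrocyte-like nuclei. Of the lists, the 4 genes with most UMIs and the genes of highest and lowest ratio were eligible to be named; MYRF, SOX10, ELOVL7 and ENPP6 were named after their values had been seen, as were the excitatory clusters.

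A minimum of 500 detected genes left 7091 and 9608 nuclei. Scrublet, at its automatic threshold and an expected rate of 0.8% per 1000 nuclei, removed 830 (11.7%) and 1458 (15.2%). Counts scaled to 10000 and log-transformed, 2000 variable genes without the 8 members, 30 principal components, 15 neighbours and Leiden resolution 1 gave the clusters (scanpy 1.11.5, igraph 0.11.9, scikit-learn 1.9.0, Python 3.11.15). A marker counted as raised at 1/3 of its highest CPM over clusters with UMIs in at least 10% of nuclei, and the class with most raised markers, at least 3, gave the name. A cluster stayed unnamed on a tie, where more of its top 10 genes were markers of another class, or where it was shallow with no own marker there.

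UMIs were summed per class and library. Intervals are exact Poisson for levels, Clopper-Pearson for shares and exact conditional binomial for log2 ratios of CPM (scipy 1.17.1). A count of 0 was given the limit of 3 counts. Genes with at least 100 UMIs in a class were counted against 1.5-fold. The ratio code was tested on simulated data. Alternatives covered doublets, the gene minimum, thinning, scaling, resolution, clustering per library and with the members, the unnamed clusters and the most one-sided cluster. Some genes of these lists are not reported here.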

Additional observations from a re-analysis of the deposited data

Results flagged for a closer look

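Pairs of classes in which the band ratio had opposite signs, each with an interval that excludes 0, drew attention; with 1 library per band the differences between classes were not tested. MOBP was slightly higher in the deeper band in oligodendrocyte-like nuclei, at a log2 ratio of 0.071, and lower there in excitatory neuron-like nuclei, at -0.43. The 8 members summed were lower in the deeper band in excitatory neuron-like nuclei, at -0.51, and higher in inhibitory neuron-like nuclei, at 0.31. The levels behind the second pair are low, at 63.7 and 44.7 CPM in excitatory and 69.8 and 86.4 CPM in inhibitory nuclei. Without doublet removal the direction in excitatory nuclei turned, with 239 CPM in the upper and 310.0 CPM in the deeper band for the sum and 56.0 and 79.7 CPM for MOBP.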

How the results depend on the processing

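With 1 library per band no library could be left out. No paired analysis was possible because each band is a single library, so that no test could be made. Values are given as deeper and then upper band unless stated. The share of oligodendrocyte-like nuclei was 27.3% and 17.1% with 2 times as many doublets removed, 26.5% and 13.1% with none removed, and 32.6% and 17.1% at resolution 2, and in the deeper band 27.9% with a minimum of 1000 genes. Within the class, the log2 ratio of the 8 summed became 0.10 at resolution 2 and 0.23 with the unnamed clusters counted in, where the ratios of MBP (0.056) and MOG (0.080) changed sign. Over all nuclei the summed ratio was 0.43 with 2 times as many doublets removed, 0.55 with none, 0.57 with at least 1000 genes, 0.83 as a mean over nuclei and 0.83 after thinning. The summed level in excitatory nuclei depended most on doublets: without removal it was 310.0 and 239 CPM, and with 2 times as many removed 40.8 and 57.3 CPM. It was 47.1 CPM as a mean over nuclei and 46.9 CPM after thinning in the deeper band, and 67.4 CPM with at least 1000 genes in the upper band. The share of excitatory nuclei with any member UMI was 34.7% and 41.6%, and after thinning 4.52% and 6.04%. The MBP ratio between FOXP2 or FEZF2 and CUX2 nuclei, an addition made after seeing the data, was 0.44 and 0.47 without doublet removal and 0.63 and 2.33 with 2 times as many removed; it was 1.05 and 1.94 in nuclei without other oligodendrocyte UMIs. Clustering with the members, resolution 0.5 and median-of-ratios scaling moved none of the values recomputed under them beyond their intervals. The cause was not tested in any of these cases. Depth limits MAG, CNP and MOG most, with 617, 483 and 865 UMIs over both bands in the class.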
